A study of Mus musculus and Rattus norvegicus with 24 samples.

Results

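The 8 cultured cells of a series of 24 single cells were divided by their share of Rpph1, the RNA component of ribonuclease P. Cells B, C, D and E had a share of at least 1% of counts and are called the high Rpph1 cells. Cells A, F, G and H had a share under 1% and are called the low Rpph1 cells. All 8 came from a mouse embryonic stem cell line labelled Isl1-Cre, Rosa-RFP and aMHC-GFP, were differentiated to cardiomyocytes and then kept in a dish for 30 days. The other groups were 8 cells of the same line after 30 days in a neonatal rat heart, called transplanted, and 8 wild-type ventricular cells of adult rats. Isl1 marks heart progenitors, so Isl1-Cre with Rosa-RFP marks cells with a history of Isl1, and the alpha myosin heavy chain promoter drives GFP in heart muscle cells. The stem cells are 1 line, and the labels name no culture or animal. They also do not say which cell was sorted by flow cytometry and which was picked by hand. Mouse and rat cells share 1 table of mouse gene symbols, and a mouse build is the only one named, so species and group cannot be told apart in the adult cells.

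The division used a measured value of these same libraries. Every gene of these 8 cells is therefore given as a description, with no test, p-value or standard error, and the 2 sets of 4 cells are not groups of the study. Ribonuclease P cuts the leader from precursor transfer RNAs in the nucleus. Its RNA is short, structured and made by RNA polymerase III, without the poly(A) tail that most messenger RNAs carry. Heart muscle messages, by contrast, range from very short (myosin light chains, subunits of the respiratory chain) to the very long one of titin.

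The RNA that sets the division lies on chromosome 14, 50807449 to 50807767 in mm10, on the minus strand, where GENCODE M21 annotates Rpph1 as a ribozyme gene of 319 bases. The file also lists Rprl3, a related gene of 290 bases on chromosome 8, 3803069 to 3803358, also on the minus strand. The first 120 bases of both are shown because reads of one can be placed on the other. They are printed from transcript sequences of GENCODE M21, 5′ to 3′, and capitals mark the 7 positions of this stretch at which they differ.
Rpph1: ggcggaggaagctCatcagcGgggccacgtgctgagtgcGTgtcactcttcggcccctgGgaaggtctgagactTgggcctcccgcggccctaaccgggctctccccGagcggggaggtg
Rprl3: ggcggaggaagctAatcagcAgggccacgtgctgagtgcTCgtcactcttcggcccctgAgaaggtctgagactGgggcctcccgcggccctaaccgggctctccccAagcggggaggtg
Over 279 aligned bases the 2 RNAs were 88.2% identical. The longest run of A was 2 bases in Rpph1 and 3 in Rprl3.

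The RNA itself chose the members, so its counts only describe them. Counts of Rpph1 were 3018, 416, 1528 and 853 in cells B to E and 4, 10, 13 and 7 in cells A, F, G and H. As shares these were 4.96%, 2.51%, 5.48% and 5.30% against 0.0202%, 0.0541%, 0.0574% and 0.0293%. The member just inside the threshold was cell C, with an exact 95% interval of 2.28 to 2.76%, and the one just outside was cell G (0.0306 to 0.0981%). No cell lay between these values. Transplanted cells had no count of Rpph1, and among adult cells only adult A had any, with 4 counts. Rprl3 had 587, 75, 253 and 139 counts in cells B to E, 5 in cell F and none in the other low cells. Per 100 counts of Rpph1 that was 19.5, 18.0, 16.6 and 16.3 in cells B to E. Given the likeness of the 2 sequences, the counts of Rprl3 and Rpph1 cannot be told apart with certainty.

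Total counts over the listed genes were 60789, 16571, 27885 and 16099 in cells B to E and 19810, 18476, 22662 and 23886 in cells A, F, G and H. Cell B thus holds about as many counts as the other high cells together, and each sum below leans on it. With every cell thinned to 16099 counts, the genes detected ranged from 717 to 2431 in high cells and from 743 to 2443 in low cells, so the sets overlapped widely. Counts are reads, since no molecular identifiers are stated, and all intervals and floors cover counting error only.

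The libraries of the 2 sets differed in the length of the genes that their counts fell on. Each gene was given the total length of its annotated exons, and the median of these lengths was weighted by counts. This total joins the exons of all annotated transcripts of a gene, so it can exceed the length of any 1 message. Leaving Ttn aside, the weighted median was 6983, 6544, 6785 and 6779 bp in cells B to E and 3766, 4933, 3730 and 4221 bp in cells A, F, G and H. Transplanted cells had 1950 to 2304 bp and adult cells 2044 to 2353 bp. Genes of under 1000 bp of exon, Rpph1 and Rprl3 apart, took 0.489 to 1.03% of counts in high cells, 3.33 to 7.04% in low cells, 10.6 to 15.5% in transplanted cells and 10.47 to 14.6% in adult cells. Genes of over 10000 bp, without Ttn, took 19.1 to 25.3% in high and 8.63 to 17.1% in low cells, against at most 4.29% in any transplanted or adult cell. Without Rpph1 and Rprl3, the 10 most abundant genes of each cell took 20.6 to 34.4% of the remaining counts in high and 7.07 to 13.1% in low cells. In none of these measures did the 2 sets overlap.

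**Figure D1:**
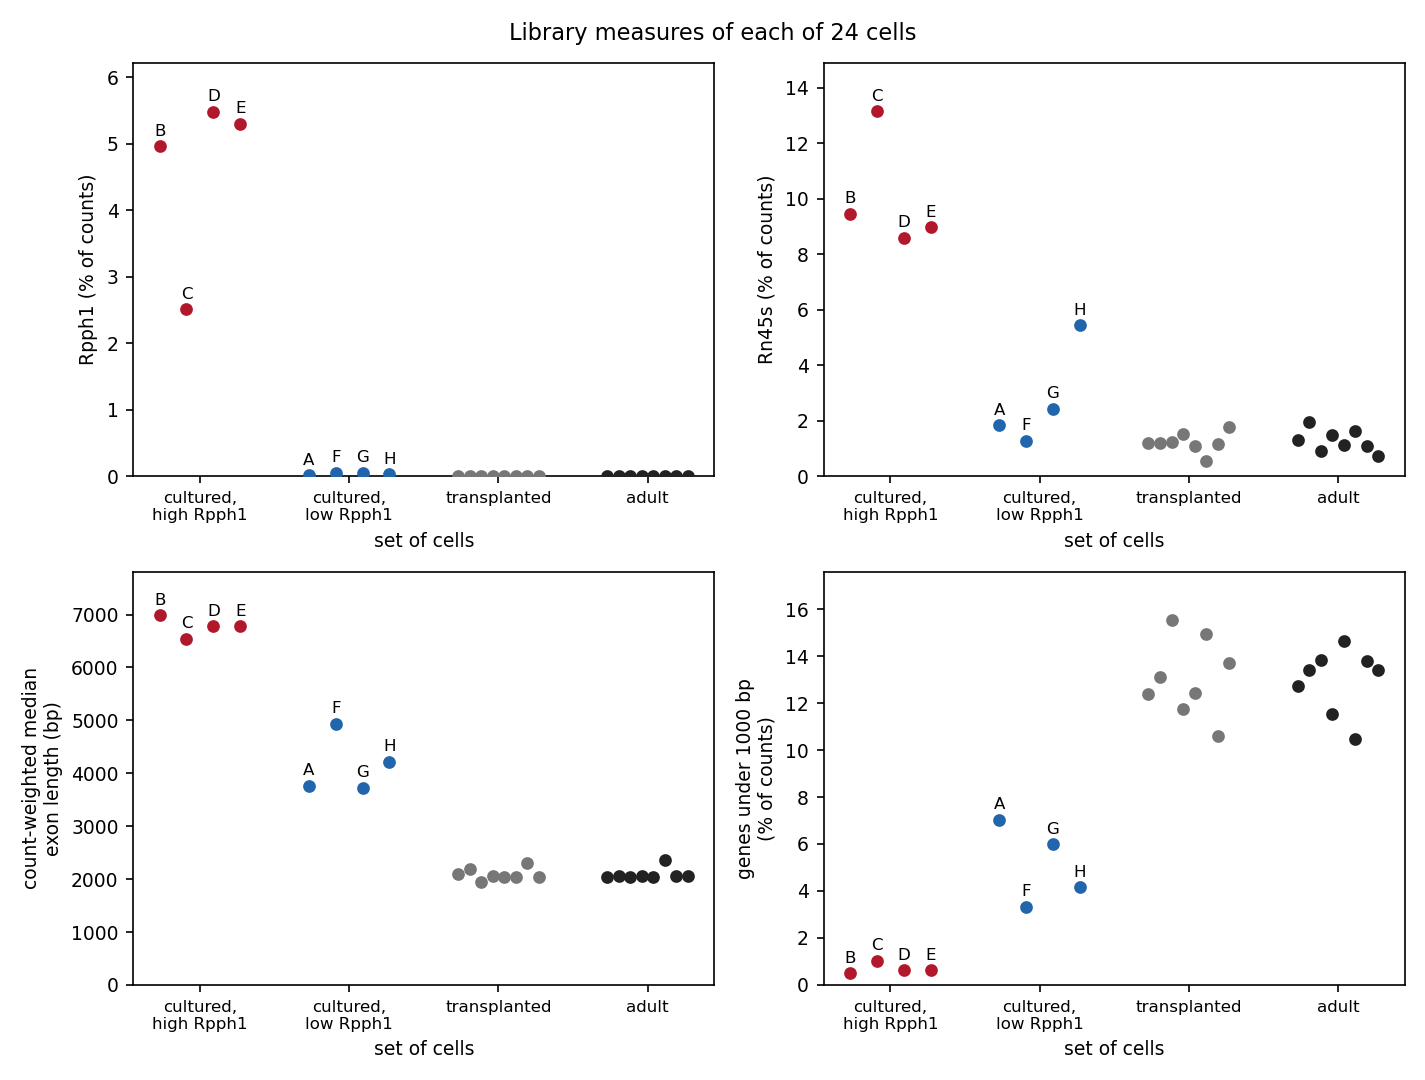
Measures of the library (vertical axes, in % of counts or bp) for each of the 24 cells, 1 point a cell, with letters naming the cultured cells. High Rpph1 cells have the longest genes (6544 to 6983 bp) and the smallest share of genes under 1000 bp (0.489 to 1.03%), and low Rpph1 cells lie between them and the transplanted and adult cells.

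Another RNA that is not a messenger also differed. Rn45s, the precursor of ribosomal RNA, had 5753, 2180, 2396 and 1444 counts in cells B to E, or 9.46%, 13.2%, 8.59% and 8.97% of counts. In cells A, F, G and H it had 365, 239, 554 and 1300 counts, or 1.84%, 1.29%, 2.44% and 5.44%. The sets did not overlap, with cell H the highest of the low cells, and the ratio of summed levels was 3.35 (3.21 to 3.499, and 5.11 without cell H). Kcnq1ot1, a very long unspliced RNA of the nucleus that silences imprinted neighbours, had 508, 102, 153 and 250 counts in cells B to E, 95 in cell F and none in A, G and H. It was 7.45-fold higher (6.04 to 9.30, and at least 185 without cell F). Malat1, an abundant nuclear RNA, overlapped between the sets, with 886, 95, 846 and 140 counts against 275, 180, 63 and 42 (ratio 2.46, and 3.70 without cell A). Rmrp, the RNA of the related enzyme RNase MRP, had 10 counts in cell B, 7 in cell C and none elsewhere. Genes of snoRNAs and miRNAs, a class added after the values were seen, took 0.0373 to 0.154% of counts in high and 0.0271 to 0.163% in low cells and so did not separate the sets.

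Across genes, 2353 had at least 20 counts over the 8 cells and are called examined. Of these, 58 (2.46%) had a higher level in each of the 4 high cells than in any low cell, and 72 (3.06%) had a lower level in each of the 4 high cells than in any low cell. Levels are CPM, counts per 1000000 of the cell's listed total. These genes are called apart. The 58 include Rpph1, which the rule fixes. The members were chosen on these same libraries, so nothing is read from either share. Leaving out a cell makes this rule easier to meet, and each of the 8 cells left out gave more genes apart in both directions. For genes apart and higher, the most were found without cell D (129 of 2153 examined) and cell E (92 of 2213). For genes apart and lower, they were found without cell H (163 of 2152) and cell F (119 of 2143). Of the genes apart, 38 of the higher had no count in any low cell and 43 of the lower had no count in any high cell. By the ratio of summed CPM, 1037 genes (44.1%) were higher in the high set by 2-fold or more, and 1021 (43.4%) were lower by that much, and the median log2 ratio over all 2353 genes was 0.07. Without cell B 495 of 1679 (29.5%) were higher and 1004 were lower, so both shares of all genes lean on this cell. In each list below, higher and lower mean this 2-fold rule, and the shares of 44.1% and 43.4% are those of all genes. For members apart, the shares of all genes are 2.46% (higher) and 3.06% (lower). List medians are of log2 ratios in which a gene with no count in a set stands at its bound, with 3 counts in that set, and over all genes this median is also 0.07. With edgeR's TMM factors the median of all genes moved up by 0.72 (log2) and 55.8% of genes past 2-fold were higher, against 50.4% by column totals and 39.4% with thinned counts.

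Among the genes apart and higher, several serve calcium handling and contraction. Slc8a1, the sodium-calcium exchanger of the heart cell membrane (chromosome 17, 81373105 to 81738377), had 140, 46, 92 and 106 counts in cells B to E and none in low cells. Against a floor of 3 counts over the 4 low cells, 35.4 CPM, it was at least 89.5-fold higher. Srl, sarcalumenin, a calcium-binding protein of the sarcoplasmic reticulum, had 55, 99, 142 and 69 counts and none (at least 85.1-fold, and at least 145 without cell B). Myh7, the beta myosin heavy chain of the fetal mouse heart, had 19, 116, 39 and 42 counts and none (at least 50.3-fold, 26.99 without cell C and 92.0 without cell B). Myocd, myocardin, the coactivator of muscle genes, had 35, 25, 59 and 23 counts and none (at least 33.1-fold, and at least 50.0 without cell B). Each of these genes was found in all 4 high cells and in no low cell.

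Other genes of the same pattern are not specific to muscle. Usp9x, a deubiquitinase, had 109, 37, 40 and 29 counts in cells B to E. Psme4, a proteasome activator, had 43, 14, 162 and 11, Birc6, a giant inhibitor of apoptosis, 109, 5, 51 and 17, and Nf1, neurofibromin, 79, 5, 74 and 20. Mdm4, a regulator of p53, had 94, 27, 45 and 4, and Rbm5, a splicing regulator, 30, 15, 53 and 46. None of these 6 had a count in any low cell. Vcan, versican, a matrix proteoglycan of the developing heart, is named here because of its values. It had 710, 149, 516 and 236 counts in cells B to E, 1 in cell H and none in A, F and G, a ratio of 1126 (202 to 44513, and at least 270 without cell H).

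Genes apart and lower included several of the mitochondrion, and others such as Fth1, Id2, Pfn2 and Atf4. Fth1, the ferritin heavy chain (chromosome 19, 9980598 to 9985098), had 85, 19, 122 and 173 counts in cells A, F, G and H and none in any high cell, at least 190-fold lower there (at least 94.9 without cell B). Atpif1, the inhibitor of the mitochondrial ATP synthase, had 48, 50, 19 and 104 counts against none. Atp5e and Atp5g3, subunits of that enzyme, had 45, 18, 30 and 53 and 15, 10, 35 and 60. Sdhb, a subunit of succinate dehydrogenase, had 22, 5, 30 and 52 counts, and Ndufa3, of respiratory complex I, 38, 10, 37 and 21. Id2, an inhibitor of helix-loop-helix transcription factors, had 19, 28, 34 and 38, and Pfn2, a profilin that binds actin, 18, 19, 28 and 57. Each of these was at 0 in cells B to E. Atf4, a stress-response transcription factor, had 4, 1, 5 and 112 counts, so cell H held most of its level.

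**Figure D2:**
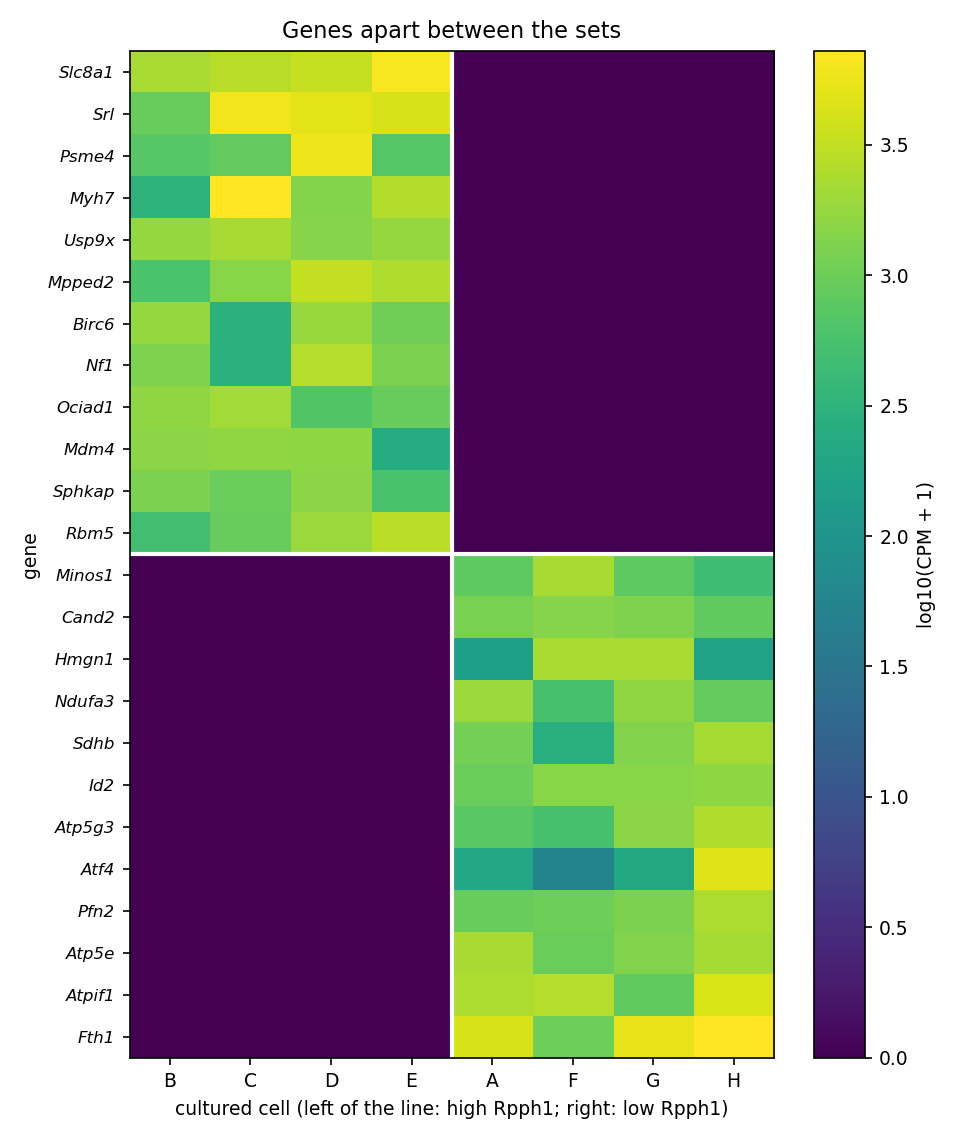
Level of the 12 highest and 12 lowest genes apart (rows) in the 8 cultured cells (columns, high Rpph1 left of the line), as log10 of CPM + 1 in colour. The rows were chosen for this pattern, so the dark blocks (0 counts) follow from the choice, and what a reader should see is the spread within a set, as for Atf4 (112 counts in cell H and at most 5 in A, F and G).

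H19, an imprinted noncoding RNA of fetal tissues (chromosome 7, 142575529 to 142578143), had 84, 5, 150 and 298 counts in cells A, F, G and H and 2, 1, 13 and 4 in cells B to E. Cell F had 0.0271% of its counts in H19 and cell D 0.0466%, so the sets overlapped. Its ratio of sums was 38.4-fold lower in high cells (24.6 to 63.4, 21.3 without cell B, 84.5 without D and 23.8 without H). Igf2, the growth factor gene beside H19, had 28, 0, 63 and 28 counts in cells A, F, G and H and none in high cells, so cell F overlapped with them. Peg3, a paternally expressed zinc finger gene, went the other way, with 285, 2, 35 and 3 counts in cells B to E, 13 in cell F and none in A, G and H. Cell B held most of its counts. Of 15 imprinted fetal growth genes examined, 5 were higher and 9 lower, with a median of -1.98, and none was apart.

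Genes apart and higher were longer than those apart and lower. Without Rpph1, their median union exon length was 8572 bp for the 56 of 57 genes with a length, against 2610.5 bp for the 72 lower genes and 5678 bp for all examined. Without the 17 ribosomal protein genes, the lower genes had a median of 3071 bp. Median genomic spans were 89706.5 and 5656 bp, and median exon numbers of the longest transcript 17.5 and 3.5. In GC content of that transcript the medians were 46.8% and 48.7%, and the longest run of A was 7 and 6 bases. The longest annotated transcript need not be the one a cell makes, so these 3 measures describe the annotation.

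A like order was found over all examined genes with a length. They were placed in 5 classes of about equal size by exon length, a step added after the values were seen. In the shortest class, up to 2952 bp, 78 of 468 genes (16.7%) were higher in high cells and 343 (73.3%) lower. The shares in the next classes were 34.9% and 54.0%, 46.3% and 40.7%, and 57.0% and 28.1%. In the longest class, of 10019 bp and over, 302 of 467 (64.7%) were higher and 103 (22.1%) lower. Classes by GC content differed less, with 47.4% higher and 37.2% lower in the lowest class and 40.3% and 52.5% in the highest. By longest run of A, 30.1% were higher and 61.1% lower in the class with the shortest runs, and 46.7% and 37.3% in the class with the longest. These properties go together in the genome, and their separate parts were not tested. The classes use sums that include cell B and were not remade without it.

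**Figure D3:**
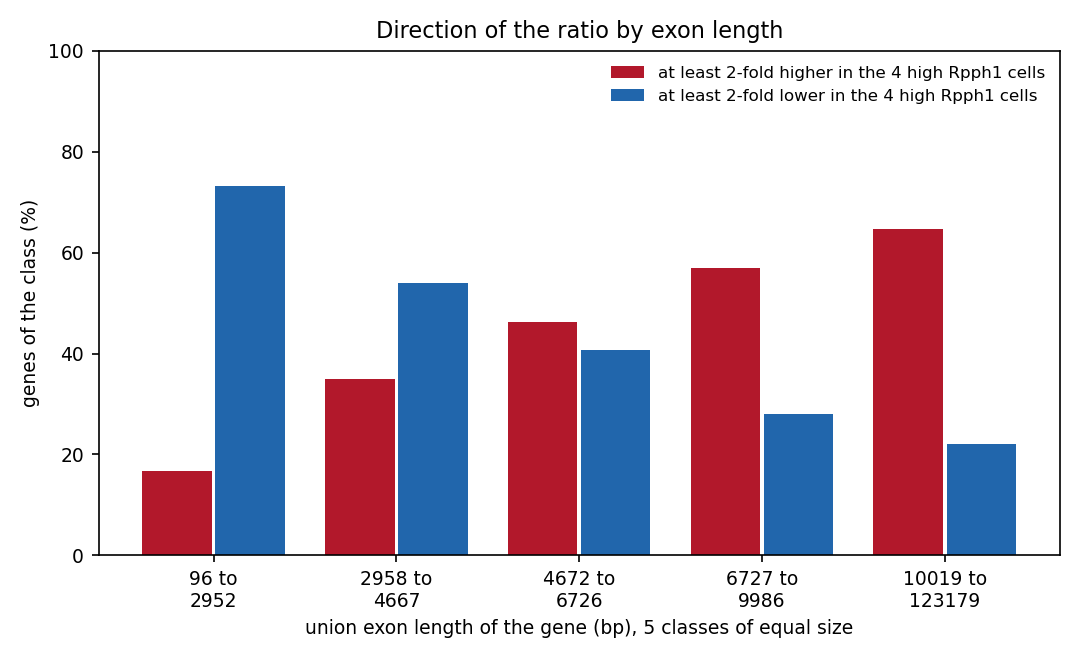
Share of genes (vertical axis, % of the class) at least 2-fold higher (red) or lower (blue) in the sum of the 4 high Rpph1 cells, in 5 classes by union exon length (horizontal axis, bp). The share of higher genes goes from 16.7% in the shortest to 64.7% in the longest class, and that of lower genes from 73.3% to 22.1%.

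Sarcomere genes, which build the contractile apparatus, went both ways, as genes did in general. Of 19 examined, 10 (52.6%, against 44.1% of all genes) were higher in high cells and 7 (36.8%, against 43.4%) lower (3 with TMM factors or at 4-fold). Apart and higher were 5 of the 19, against 2.46% of all genes, among them Ttn, Myh6, Myh7 and Ldb3. The list median was 2.65 against 0.07 over all genes. Ttn, titin, the spring of the sarcomere (chromosome 2, 76703980 to 76982547), had 2685, 2499, 2849 and 1254 counts in cells B to E, or 4.42%, 15.1%, 10.2% and 7.79% of counts. Cell A had 14 counts and F, G and H none, a ratio of 464 (276 to 849, and at least 1659 without cell A). Transplanted cells had 0.0529 to 0.728% of counts in Ttn and adult cells 0.121 to 0.865%, below the lowest high cell, B. Myh6, the gene of the reporter's promoter, had 73, 175, 300 and 5 counts in cells B to E, 3 in cell A and none in F, G and H. Its ratio was 129 (43.9 to 627, at least 98.8 without cell A, 224 without B and 76.6 without D). Ldb3, a Z-disc protein, had 22, 9, 76 and 6 counts in cells B to E and none in low cells.

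Sarcomere genes of under 5 kb of exon were found mainly in cell A (517 counts). Myl7, the atrial light chain, had 199 counts in cell A, 78, 20 and 1 in F, G and H, and 0, 12, 18 and 3 in cells B to E. It was 12.9-fold lower in the high set (8.998 to 19.1, 5.60 without cell A, 6.45 without B and 21.9 without D). Actc1, cardiac actin, had 112 counts in cell A, 1 in F, none in G and H, and 22, 47, 0 and 4 in cells B to E. Its ratio of sums was 2.21-fold lower (1.64 to 3.01) and 5.37-fold lower without cell C, but its direction turned without cell A. Myl2 and Tnni3, the ventricular light chain and adult troponin I, had 90 and 24 counts in cell A and none in any other cultured cell. Tnnt2 and Tpm1 have at least 5 kb of exon over all annotated transcripts and are not placed among these short genes. Their single messages can be shorter than that. Tnnt2, cardiac troponin T, had 14 in cell A, 2 in C, 22 in D and none elsewhere, so its sets overlapped. Tpm1, tropomyosin, had 66 and 58 counts in cells A and F, none in G and H, and 45, 1, 3 and 14 in B to E. Mybpc3, a myosin-binding protein, had no count in any of the 8.

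Divided at 5 kb of exon after the values were seen, 9 of 11 examined sarcomere genes of at least 5 kb were higher in the high set and 1 was lower. Of 8 under 5 kb, 1 was higher and 6 were lower, while without cell A 1 gene of the whole list was lower. In cells B to E the longer genes took 4.84%, 17.5%, 12.1% and 8.67% of counts, against 0.555%, 0.314%, 0.00441% and 0% in A, F, G and H. The shorter ones took 0.0526%, 0.616%, 0.115% and 0.335% in B to E and 2.61%, 0.487%, 0.0883% and 0.00837% in A, F, G and H. In transplanted and adult cells the whole list took 16.3 to 23.7%. All 8 cells are labelled cardiomyocytes, but Ttn, Myh6, Myh7, Tnnt2, Tnni3 and Ryr2 were all at 0 in cells F, G and H. Of these genes, Tnni3 was also at 0 in each of cells B to E, and Tnnt2 in cells B and E. Myl7 went the other way, with more counts in F and in G than in any of cells B to E. Over the whole list, cell F had 148 counts, mostly Myl7 and Tpm1, cell G 21, mostly Myl7, and cell H 2.

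Calcium handling genes were also mixed. Of 11 examined, 6 were higher (Slc8a1, Ryr2, Cacna1d, Gja5, Asph and Smpx) and 3 lower, with a median of 3.03. Ryr2, the calcium release channel of the sarcoplasmic reticulum, had 42, 51, 24 and 68 counts in cells B to E, 9 in cell A and none in F, G and H. It was 14.4-fold higher (7.41 to 31.9, 22.3 without cell B and at least 33.0 without A). Among 5 heart transcription factors examined, Myocd and Hand1 were higher and Mef2c was lower. Mef2c had 82 counts in cell H, 20 in B and 1 in E, and its direction turned without cell H.

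Genes with very long messages were mostly higher in high cells. A list of giant genes had 29 examined members, of which 24 (82.8%, against 44.1% of all genes) were higher and 3 lower. Apart and higher were 9 of the 29, against 2.46% of all genes, and the list median was 3.39. Of the 29 members 15 had no count in any low cell, so that median is partly a bound. Without cell B 14 of 18 examined were higher. Macf1, a crosslinker of microtubules and actin, had 170, 18, 222 and 38 counts in cells B to E, 6 in A, 2 in H and none in F and G (ratio 39.1, 19.7 to 91.2, 120 without cell A and 25.6 without D). Syne1 and Syne2, nesprins of the nuclear envelope, had 38, 2, 14 and 7 and 43, 10, 14 and 14 counts and none in low cells. The list took 6.398%, 16.9%, 11.7% and 9.96% of counts in B to E and 0.414%, 0.590%, 0.0883% and 0.247% in A, F, G and H, most of it Ttn in the high cells. Without Ttn the shares were 1.98%, 1.80%, 1.52% and 2.17% against 0.343%, 0.590%, 0.0883% and 0.247%, and the sets still did not overlap.

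Chromatin regulators, many of which are long, overlapped between the sets in their share of counts. Of 30 examined, 18 (60.0%, against 44.1% of all genes) were higher, 5 (16.7%, against 43.4%) lower and 2 apart and higher (Ash1l and Trrap, against 2.46% of all genes), with a median of 2.21. Without cell B 6 of 14 examined were higher, against 29.5% of all genes. Ash1l, a histone methyltransferase, had 40, 11, 36 and 13 counts in cells B to E and 2 in cell A, with none in F, G and H. The list's shares were 1.54%, 1.15%, 0.681% and 0.988% against 0.464%, 0.628%, 0.287% and 1.38%. Of 29 splicing factors examined, 11 (37.9%) were higher and 12 (41.4%) lower, near the 44.1% and 43.4% of all genes, with a median of 0.03.

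Cytosolic ribosomal protein genes, which are short and among the most expressed in most cells, were scarce in high cells. Of 77 listed genes, 12, 7, 8 and 3 had a count in cells B to E and 43, 33, 51 and 45 in cells A, F, G and H. Their summed counts were 48, 29, 39 and 17 against 473, 562, 1132 and 1053, or 0.0790%, 0.175%, 0.140% and 0.106% against 2.39%, 3.04%, 4.995% and 4.41%. Of 31 examined, 29 (93.5%, against 43.4% of all genes) were lower and none was higher. Apart and lower were 17 of the 31, against 3.06% of all genes, and the list median was -4.76. Of the 31 members 19 had no count in any high cell, so that median is partly a bound. Rpl32, of the large subunit (chromosome 6, 115805505 to 115808747), had 36, 119, 102 and 74 counts in A, F, G and H and none in high cells. It was at least 158-fold lower there (at least 78.8 without cell B). Rps14, of the small subunit, had 51, 79, 161 and 161 counts against 1, 3, 0 and 0 (162-fold lower, 62.7 to 596, 108 without cell B and 558 without C). Reads of these genes can also fall on their many pseudogenes. Transplanted and adult cells had 0.612 to 1.16% of counts in the list, between the 2 sets of cultured cells.

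Oxidative phosphorylation, translation factor, cytoskeletal and glycolysis genes also had more members lower than higher. The median exon lengths of these lists were 1675, 4168, 2724.5 and 3409 bp. Of 37 oxidative phosphorylation genes examined, 31 (83.8%, against 43.4% of all genes) were lower and 1 was higher (Sdhc). Apart and lower were 6 of the 37, against 3.06% of all genes, and the list median was -3.90. The list took 0.255%, 0.501%, 0.498% and 0.199% of counts in cells B to E and 4.73%, 1.24%, 3.12% and 3.20% in A, F, G and H. Transplanted and adult cells had 20.9 to 28.3%. Of 18 translation factors examined, 13 were lower and 4 higher, with a median of -2.97. Eef1a1, the factor that brings transfer RNA to the ribosome, had 32, 13, 1 and 6 counts in B to E and 64, 47, 135 and 180 in A, F, G and H. Among cytoskeletal genes, 8 of 12 examined were lower and 2 higher, with a median of -2.49, and Tmsb4x, an actin-binding peptide, had 6, 0, 0 and 0 counts against 215, 103, 357 and 135. Of 8 glycolysis genes examined, 5 were lower and 1 higher, and Aldoa, aldolase A, had 9, 2, 0 and 0 counts against 82, 120, 19 and 0, so cell H overlapped with the high cells.

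**Figure D4:**
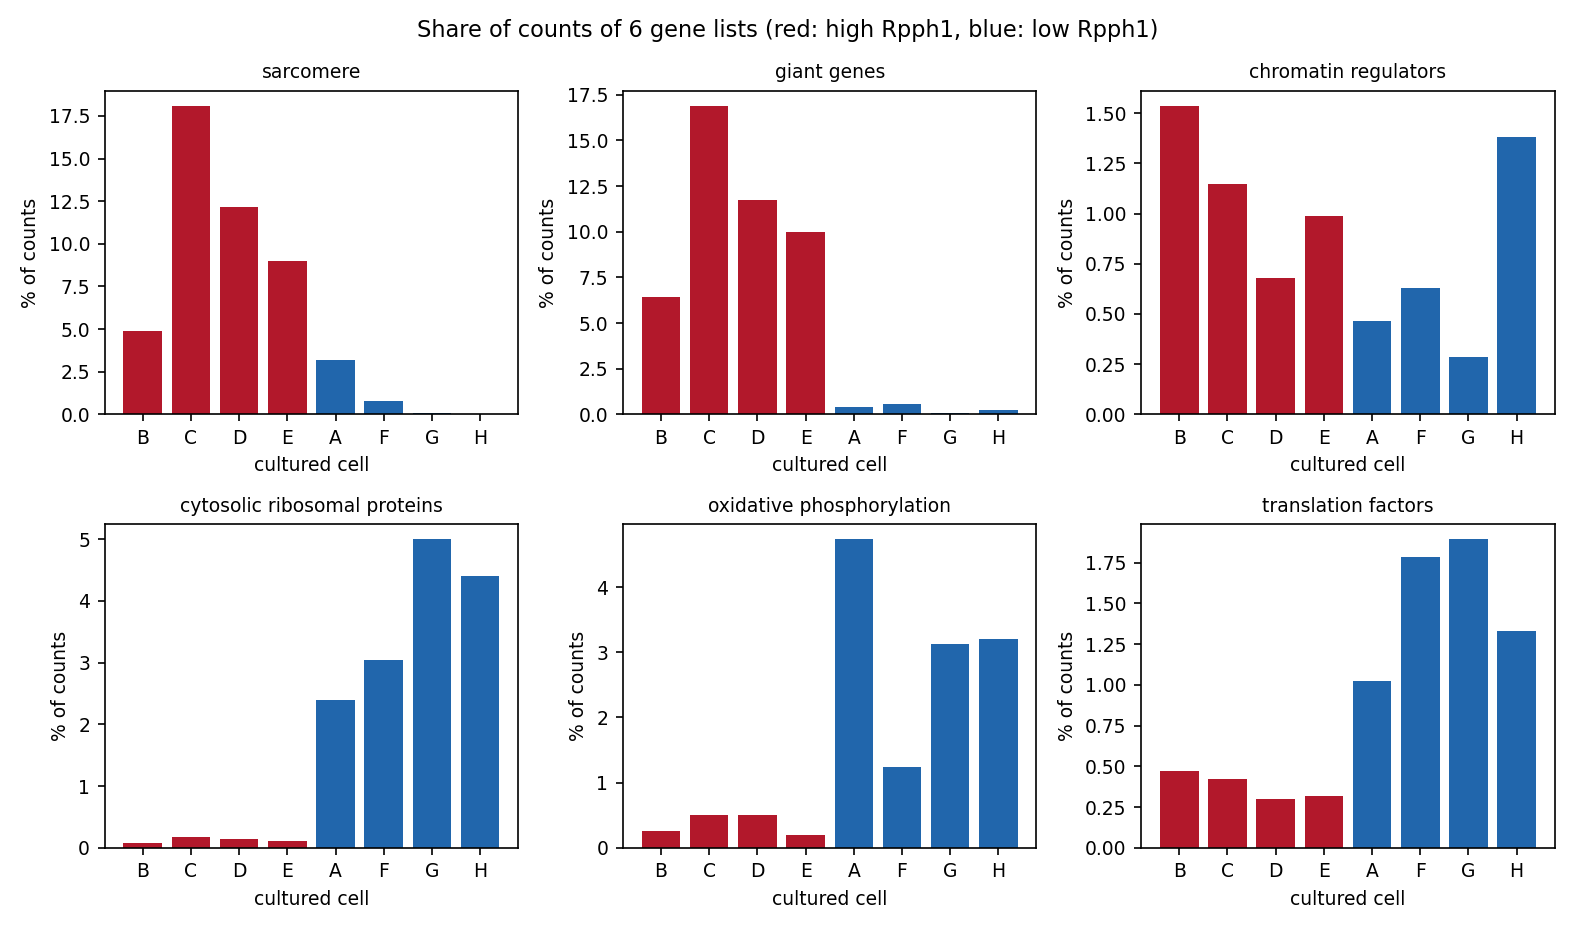
Share of counts (vertical axes, %) of 6 gene lists in each cultured cell (horizontal axes), 1 bar a cell. Sarcomere and giant genes are higher in cells B to E, ribosomal protein, oxidative phosphorylation and translation factor genes are higher in A, F, G and H, and chromatin regulators overlap through cell H (1.38%).

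Cell division genes varied within both sets. Their shares were 0.0773%, 0.0664%, 0% and 1.16% in cells B to E and 0.151%, 1.02%, 0.560% and 0% in A, F, G and H, with 3 of 8 examined genes higher and 5 lower (median -2.70). Top2a, a topoisomerase of dividing cells, had 74 counts in cell E, 7 in G and none elsewhere. Its ratio of sums, 7.39 (3.41 to 19.0), turned without cell E and was 14.8 without B and at least 12.6 without G. Markers of other cell types were found in both sets. Fibroblast markers (11 listed, with Col3a1, Dcn, Lum, Postn and Mgp at 0) had shares of 0.0872%, 0.109%, 0% and 0.0559% in B to E and 0.111%, 0.124%, 0% and 0.209% in A, F, G and H. In cell H that was 50 counts in 2 of the markers, 37 of them in Fn1, fibronectin. Fn1 also had 14, 26 and 21 counts in cells A, B and F. The whole sarcomere list had 2 counts in cell H. Transplanted cells had at most 0.00300% in the fibroblast markers and adult cells at most 0.0369%. Smooth muscle and pericyte markers (9 listed) had at most 0.145% in high and 0.177% in low cells, most of it Acta2, smooth muscle actin. Endothelial markers (7 listed, with Pecam1, Cdh5, Kdr and Eng at 0) had 0 to 4 counts a cell. Macrophage and leukocyte markers (3 listed) had 21 counts in cell B, all Cd68, and 6 in cell C, all Itgam, and C1qb was at 0. Endoderm and epithelial markers (8 listed, with Ttr, Apoa2 and Apoe at 0) had at most 6 counts a cell. Their part in the differences was not tested.

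Pairs of cells within a set had higher rho than mixed pairs, but the choice of genes favours this. Spearman's rho of log2(CPM + 1) over 2352 genes, without Rpph1, was 0.0135 to 0.274 for the 6 pairs of high cells and 0.0897 to 0.245 for the 6 pairs of low cells. The 16 mixed pairs had -0.249 to 0.00337. These values are low, they are across genes of sparse libraries, and they describe the same data that made the division. The pair of cells B and D, at 0.0135, was the least alike within either set. Against the summed profile of the transplanted cells, rho was -0.0995, 0.0424, -0.0363 and -0.0103 for cells B to E and 0.305, 0.141, 0.267 and 0.158 for A, F, G and H. Against the adult sum it was -0.0946, 0.0652, 0.0106 and 0.0279, and 0.308, 0.125, 0.242 and 0.146. Each low cell lay above each high cell in both.

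**Figure D5:**
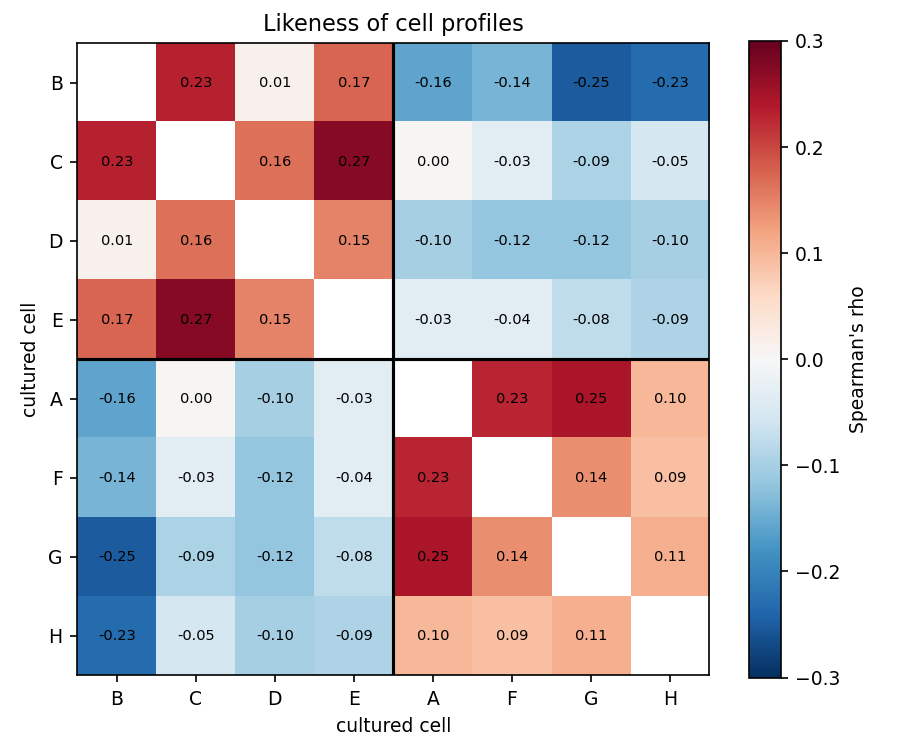
Spearman's rho between pairs of cultured cells (axes), as colour and number, with lines between the sets. Pairs within a set run from 0.0135 to 0.274 and mixed pairs from -0.249 to 0.00337.

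The genes apart were then looked up in the 16 cells that the division did not use. Of the 72 genes apart and lower, 39 (54.2%) had a count in at least 4 of 8 transplanted cells and 43 (59.7%) in at least 4 of 8 adult cells. Of the 57 apart and higher without Rpph1, these numbers were 8 (14.0%) and 11 (19.3%), and over all 2352 genes the shares were 10.3% and 13.1%. The share of counts of the lower genes was 5.93 to 8.79% in transplanted cells and 6.41 to 9.10% in adult cells, against 8.71 to 14.3% in low and 0.0143 to 0.368% in high cells. The higher genes took 20.9 to 36.4% in high cells, 1.86 to 5.46% in low, 0.768 to 2.68% in transplanted and 1.35 to 3.37% in adult cells.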

How the data were processed

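RNA of 24 single cells was copied into cDNA with SMARTscribe reverse transcriptase, amplified for 19 cycles and cut with Tn5, per the labels' protocols. The authors deposited whole-number counts per gene and cell for 9595 listed genes. Per the submitters' processing notes, TopHat2 2.1.0, HTSeq, DESeq2 and mm10 are listed, with no role stated. How the genes were annotated, counted by strand and chosen for listing is not given in the sources used here, so totals (16099 to 60789 in cultured cells) may be below library depth.

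Cells were grouped by title, and the 8 cultured cells were then divided at 1% of counts in Rpph1. CPM is counts per 1000000 of the column total, and log2 ratios use sums over cells with a pseudocount of 1 CPM. Ratios carry exact conditional binomial intervals and shares Clopper-Pearson intervals, at 95%. Against 0 counts a floor of 3 counts over the set was used, also in list medians. Genes with at least 20 counts over the 8 cells were examined for overlap and for a 2-fold ratio. Lengths, exons and sequence were taken from GENCODE M21 (mm10), with 9523 symbols matched (99.2%). Named genes were the 12 highest and lowest genes apart, the 8 highest and lowest with at least 100 counts, the 3 most abundant of each of 25 lists, and a set of heart and noncoding genes. The rankings left out Rpph1, ribosomal protein genes and unnamed (Gm, Rik, LOC, BC, AI, AK) genes, and the text prints a part. Some named items are not reported here. Other genes were named after their values were seen (Rprl3, Vcan, Ldb3, Syne1, Syne2, Ash1l, Mybpc3, Myl2, Tnni3, and members listed with a count), as were the length, GC and A-run classes. The members and lists were chosen with earlier results of these data known. Alternatives used edgeR 4.0.16 (TMM factors) and DESeq2 1.42.0 (size factors) with no model fitted, other totals, minimums, thinning, equal cell weights and leaving out each cell. Calculations used Python 3.11.15 and were tested on simulated counts with Poisson error only. Those counts had no further variation between cells, so the check does not cover calls in cells as uneven as these.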

Additional observations from a re-analysis of the deposited data

Results flagged for a closer look

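In 44 sets of 8 values, the gap between the extreme cell and its neighbour was compared with the range, and 7 exceeded Dixon's 95% limit of 0.526. The limit is passed in about 1 set in 20 only where values follow a normal distribution. Several of these sets are shares of few counts with many zeros, and their rate by chance was not tested. A set with counts in 1 cell alone always passes the limit. In cultured cells, splicing factors took 2.70% of counts in cell F, against 1.60% in the next. Immediate early and stress genes took 1.22% in cell H, against 0.241%, with 112 of 292 counts in Atf4 and 50 in Zfp36. Endothelial markers took 0.0241% in cell C, neural markers 0.135% in cell F (24 of 25 counts in Sox2, which also had counts in all 8 transplanted and all 8 adult cells), and pluripotency markers 0.0963% in cell H (all 23 counts in Klf4). The last 3 rest on 4 to 25 counts. Among adult cells, adult A alone had Rpph1, at 0.00179% of counts, and adult F had the longest count-weighted median exon length, 2353 bp against 2063 bp.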

How the results depend on the processing

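No paired analysis was possible because no model was fitted and the letters only name cells. With at least 100 counts (321 genes) 33 genes were apart and higher, 37 apart and lower, 125 higher and 152 lower by 2-fold. Fewer genes then enter each list: 9 ribosomal protein genes were lower (7 apart), 11 oxidative phosphorylation genes lower, 7 giant genes higher (4 apart), 5 sarcomere genes higher and 3 lower, 1 chromatin regulator higher and 4 translation factors lower. Median rho was then 0.396 (high pairs), 0.244 (low pairs) and -0.192 (mixed). With any count, 3610 genes were higher and 3116 lower, with 55 ribosomal protein genes lower and 29 chromatin regulators higher. Thinning, which leaves fewer genes at 20 counts, gave 528 higher. Sarcomere genes lower were 3 with TMM factors and 3 at 4-fold, and the cause was not tested. Leaving out each cell gave 62 to 129 genes apart and higher, 74 to 163 apart and lower, 495 to 1059 higher, 14 to 26 giant genes higher, 1 to 7 sarcomere genes lower and 6 to 20 chromatin regulators higher. Of the log2 ratios of 130 named genes under the alternatives, 1566 of 1820 values stayed within the counting interval or, for bounds, within 1.5-fold, 247 moved and 7, all of genes past 2-fold, turned direction. Counting ratios of any size, 50 values of 19 genes changed sign. With the 1 CPM pseudocount, which makes no bound of a set at 0 counts, the genes past 2-fold that turned ranged over left-out cells from -2.42 to 5.20 (Actc1), -2.04 to 6.96 (Myl4), -7.03 to 3.21 (Des), -1.05 to 7.51 (Etfdh), -7.13 to 6.52 (Lpl), -5.79 to 7.44 (Mef2c) and -6.38 to 9.26 (Top2a). Against the floor of 3 counts, several of these ends are only bounds. Lpl and Mef2c were at least 1.84-fold and 3.52-fold higher without cell H. Myl4 and Etfdh were at least 2.68-fold and 3.93-fold higher without cell A. Top2a was at least 12.6-fold higher without G and at least 2.89-fold lower without E. Des without F and Etfdh without B had too few counts for a ratio. Of 252 medians of 18 lists with the pseudocount, 184 moved by at most 1.5-fold, 67 by more and 1 turned, that of fatty acid oxidation (-3.45 to 0.71 over left-out cells). Medians with genes at their bound, shares without Ttn and abundant genes without Rpph1 were added after the values were seen. The medians of lists were not recomputed at other count minimums. Totals of 16099 to 60789 counts limit what an absence can show: the floor of 3 counts is 24.7 CPM over the high set and 35.4 CPM over the low set, and the exact upper limits of 0 counts are 30.4 and 43.5 CPM.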
